A study of Bos taurus with 8 samples.

Results

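The microRNA (miRNA) family of miR-15, miR-16, miR-195 and miR-497 was followed in mammary tissue of 8 heifers. Its members were taken by name from a one-colour Agilent bovine array: bta-miR-15a, bta-miR-15b, bta-miR-16a, bta-miR-16b, bta-miR-195 and bta-miR-497, which are 6 of the 763 bovine miRNAs and 13 of the 1657 miRNA probes on it. All 6 were well above background on all 8 arrays, so no member was lost to a filter on low signals. The animals were 4 Holstein-Friesian heifers, a dairy breed, and 4 Limousin heifers, a beef breed, and the comparison asks how the gland's miRNAs differ between the breeds before a first calving. All 8 were healthy and non-pregnant, and no treatment is labelled. Their age is given as 20 months in one label field and as 2 years in another. Each sample was a piece of the gland taken at a slaughterhouse and had its own array, and the labels name the 4 samples of a breed biological replicates. The tissue was not separated into cell types, so fewer cells of a type and less RNA per cell cannot be told apart.

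A miRNA is a short RNA that guides Argonaute proteins to messenger RNAs, mainly through its seed, bases 2 to 8 from its 5′ end, and lowers their stability or translation. The members of this family carry a common seed and are known to repress many of the same messengers, among them those of D-type and E-type cyclins and of the survival protein BCL2. They are known chiefly as brakes on entry into DNA replication, and the pair of miR-15a and miR-16 was first linked to chronic lymphocytic leukaemia, in which it is often deleted. In mammals the family is made from gene pairs that are each transcribed together: miR-15a with a miR-16 copy, miR-15b with the other miR-16 copy (within SMC4, a condensin subunit gene), and miR-195 with miR-497. In a heifer the mammary ducts and stroma are still growing, and division of these cells is the process that the family is known to restrain.

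The sequences below show how alike the probes of the members are. Each line gives, 5′ to 3′, the probe that stands for the miRNA here, with GTGCT in capitals. These 5 bases are the longest run that the 6 probes share, and they pair with the miRNA near its 5′ end, over the end of the seed.
miR-15a: acaaaccattatGTGCTgc
miR-15b: tgtaaaccatgatGTGCTgc
miR-497: tacaaaccacagtGTGCTgc
miR-16a: caccaatatttacGTGCT
miR-16b: gccaatatttacGTGCTg
miR-195: tgccaatatttctGTGCT

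The stretch of each miRNA that its probe pairs with is the reverse complement, given here in RNA letters with AGCAC in capitals.
miR-15a: gcAGCACauaaugguuugu
miR-15b: gcAGCACaucaugguuuaca
miR-497: gcAGCACacugugguuugua
miR-16a: AGCACguaaauauuggug
miR-16b: cAGCACguaaauauuggc
miR-195: AGCACagaaauauuggca

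Beyond the seed the members fall into 2 groups by their 3′ end, and these groups cut across the gene pairs. The probes of miR-16a and miR-16b share an unbroken run of 16 bases, and those of miR-16b and miR-195 match at 15 of the 17 bases over which they align without gaps. In the other group the probe of miR-15a matches that of miR-15b at 16 of 19 bases and that of miR-497 at 16 of 19. By contrast miR-15b and miR-16b, which lie in 1 gene pair, match at 11 of 18. Cross-hybridisation between such near copies was not tested, and the separate values of miR-16a and miR-16b are uncertain for this reason.

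On the UMD 3.1 build, as the array annotation gives it, the probe of miR-15a lies on chromosome 12 from 19596362 to 19596379 and that of miR-16a on the same chromosome from 19596218 to 19596234, with 127 bases between them. The probe of miR-15b lies on chromosome 1 from 107923401 to 107923419 and that of miR-16b from 107923256 to 107923272, with 128 bases between them. The probe of miR-195 lies on chromosome 19 from 27441362 to 27441378 and that of miR-497 from 27441678 to 27441696, with 299 bases between them. These intervals are 1 base shorter than the probes, and the strand was not taken from them. In the RefSeq annotation of assembly ARS-UCD2.0 no other gene lies between the partners of any pair. MIR15B and MIR16B lie within the bounds of the protein-coding gene SMC4, and the other pairs lie within a transcribed pseudogene (LOC100847818, with MIR15A and MIR16A) and a long non-coding RNA (LOC107131510, with MIR195 and MIR497).

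A single slide, scanned in a single run, carried all 8 arrays. The Holstein-Friesian samples filled the first position index and the Limousin samples the second, and breed and position on the slide therefore cannot be told apart. Within each breed a further position index ran from 1 to 4 and equalled the replicate number. The Limousin arrays were brighter: the factor that scaled an array to a common level was 1.02 to 1.73 in Holstein-Friesian and 0.609 to 1.02 in Limousin, and the median log2 difference of all tested miRNAs was -0.07 with this scaling and 0.78 without it. Levels below are scaled log2 signals (log2 of the mean spot intensity after scaling), compared only for 1 miRNA across arrays. Differences are Limousin minus Holstein-Friesian, with a limma p-value adjusted over the 270 miRNAs that were well above background on all 4 arrays of a breed. Of these, 113 passed at 0.05, 37 higher and 76 lower in Limousin. The count was 73 without Holstein-Friesian replicate 4 and 71 without Limousin replicate 1. The split also moved with the scaling, to 104 higher and 30 lower with the percentile over all probes, 55 and 43 with quantile scaling, 45 and 59 with cyclic loess and 173 and 2 with none. The number of arrays limits the precision, and the spots of a family probe that stands for its miRNA had a coefficient of variation of 2.16% to 8.38% within an array.

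Within the family, miR-15a and miR-16b were called higher in Limousin, by 1.38-fold and 1.33-fold. The values of miR-16a lay the same way, 1.26-fold, but missed the threshold. Those of miR-15b, miR-195 and miR-497 overlapped between the breeds and did not pass. Over 19 other processing settings, miR-15a kept its call in 14 and miR-16b in 12. Both calls were lost with the replicate number, also a position index on the slide, as a block (limma adjusted p = 0.0622 and 0.0983). They were lost too when the GC content of the probes, their length or both were allowed for. Leaving out Holstein-Friesian replicate 4, Limousin replicate 1 or Limousin replicate 4 also cost both calls. Of all tested miRNAs, 13.7% were called higher and 28.1% lower, 41.9% in either direction. A count of 2 called among 6 members lies close to the latter, so nothing particular to the family is read from it. The median log2 difference was 0.24 over the 6 members and -0.07 over all 270. It was 0.14 over the 88 tested miRNAs with probes of 18 to 20 bases, the lengths of the probes that stand for the members.

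**Figure D1:**
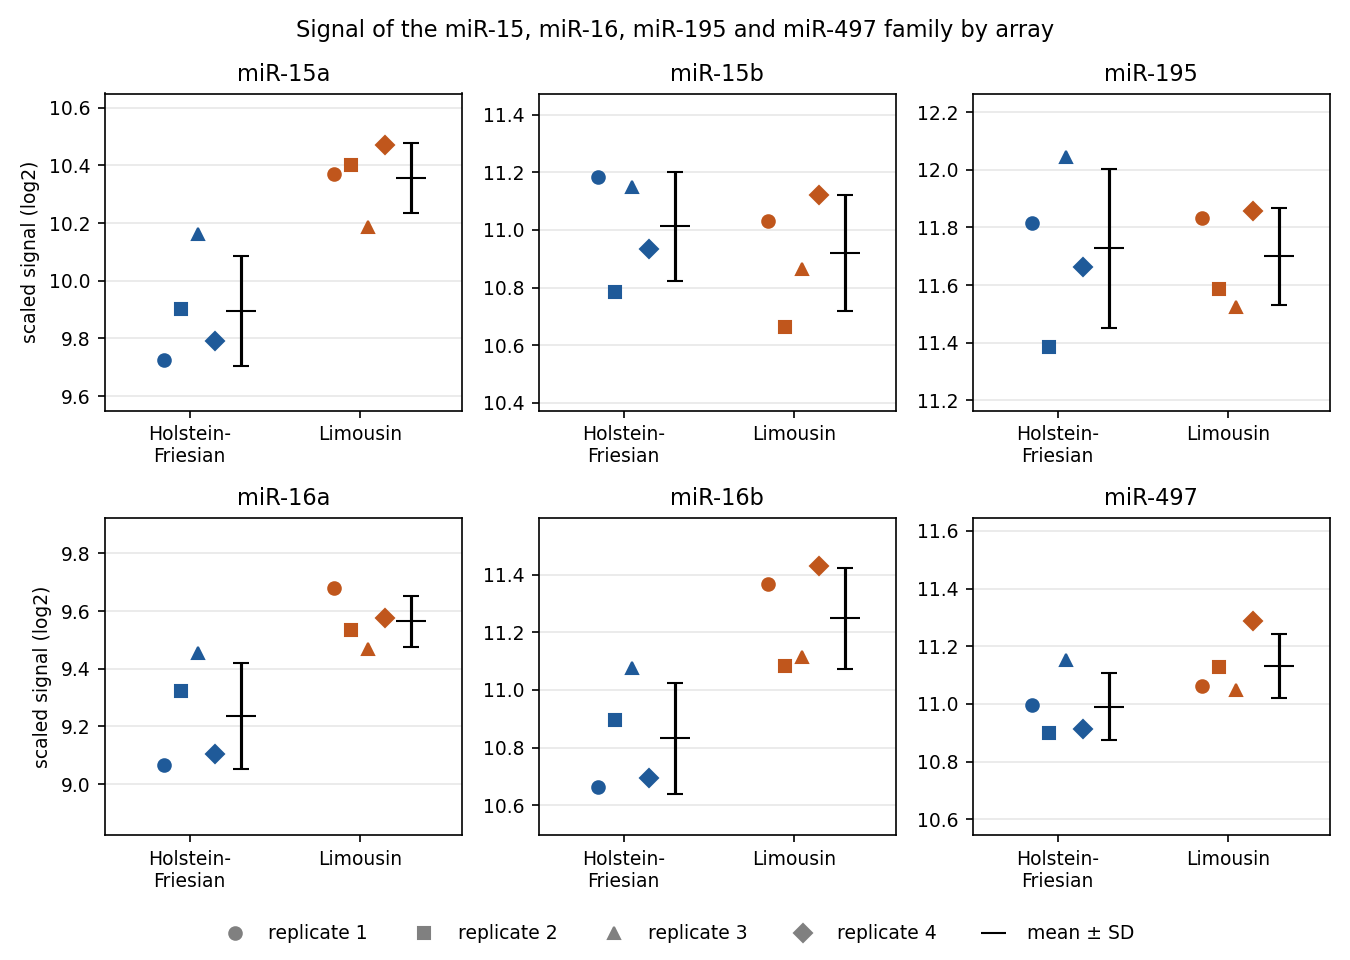
Scaled log2 signal (y axis) of each family member on each of the 4 Holstein-Friesian and 4 Limousin arrays, with marker shape for the replicate and the mean ± SD beside the points; every panel spans the same log2 range. The breeds do not overlap for miR-15a, miR-16a and miR-16b, where Holstein-Friesian replicate 3 comes nearest to the Limousin values, and they overlap for miR-15b, miR-195 and miR-497.

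The first gene pair is that of miR-15a and miR-16a. The scaled log2 signal of miR-15a was 9.73, 9.90, 10.16 and 9.79 in Holstein-Friesian replicates 1 to 4 and 10.37, 10.40, 10.19 and 10.47 in Limousin replicates 1 to 4. All 4 Limousin values lay above all 4 Holstein-Friesian values, but Holstein-Friesian replicate 3 and Limousin replicate 3 were almost level. The means were 9.90 ± 0.19 (SD, n = 4) and 10.36 ± 0.12 (SD, n = 4), a log2 difference of 0.46 (SE 0.13; 1.38-fold, 95% confidence interval 1.13 to 1.68; limma adjusted p = 0.0174). The call was lost without Holstein-Friesian replicate 4 (0.43; adjusted p = 0.0571), without Limousin replicate 1 (0.46; adjusted p = 0.0536) and without Limousin replicate 4 (0.42; adjusted p = 0.0514).

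For the partner, miR-16a, the scaled log2 signal was 9.06, 9.32, 9.45 and 9.10 in Holstein-Friesian and 9.68, 9.54, 9.47 and 9.57 in Limousin. The groups again did not overlap, with Holstein-Friesian replicates 1 and 4 low and replicate 3 next to the lowest Limousin value. The means were 9.24 ± 0.18 (SD, n = 4) and 9.57 ± 0.09 (SD, n = 4), a log2 difference of 0.33 (SE 0.12; 1.26-fold, 95% confidence interval 1.04 to 1.52; limma adjusted p = 0.0519). It passed without Holstein-Friesian replicate 2 (0.36; adjusted p = 0.0340) and without Holstein-Friesian replicate 3 (0.40; adjusted p = 0.0282), and over the 232 miRNAs detected on all 8 arrays (adjusted p = 0.0490). Its place beside the threshold thus turned on single arrays and on the number of miRNAs tested.

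In the second pair miR-16b passed and miR-15b did not. The scaled log2 signal of miR-16b was 10.66, 10.89, 11.08 and 10.70 in Holstein-Friesian and 11.37, 11.08, 11.11 and 11.43 in Limousin. Limousin replicate 2 lay just above Holstein-Friesian replicate 3, and Limousin replicates 1 and 4 stood well above all other arrays. The means were 10.83 ± 0.19 (SD, n = 4) and 11.25 ± 0.18 (SD, n = 4), a log2 difference of 0.42 (SE 0.14; 1.33-fold, 95% confidence interval 1.08 to 1.65; limma adjusted p = 0.0330). The call was lost without Holstein-Friesian replicate 1 (0.36; adjusted p = 0.0853), Holstein-Friesian replicate 4 (0.37; adjusted p = 0.0971), Limousin replicate 1 (0.38; adjusted p = 0.10) or Limousin replicate 4 (0.36; adjusted p = 0.0913), and also with all 763 miRNAs tested (adjusted p = 0.0803).

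The other partner, miR-15b, had a scaled log2 signal of 11.18, 10.78, 11.15 and 10.93 in Holstein-Friesian and 11.03, 10.66, 10.86 and 11.12 in Limousin. Replicate 2 was the lowest of its breed in both groups, and the ranges overlapped over most of their length. The means were 11.01 ± 0.19 (SD, n = 4) and 10.92 ± 0.20 (SD, n = 4), a log2 difference of -0.09 (95% confidence interval -0.41 to 0.22; limma adjusted p = 0.640). The interval leaves room for a fall of 0.41 or a rise of 0.22.

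The third pair showed no call. The scaled log2 signal of miR-195, a member best known for its rise in heart muscle after birth, was 11.82, 11.38, 12.04 and 11.66 in Holstein-Friesian and 11.83, 11.59, 11.53 and 11.86 in Limousin. Both the highest and the lowest of the 8 values were Holstein-Friesian. The means were 11.73 ± 0.28 (SD, n = 4) and 11.70 ± 0.17 (SD, n = 4), a log2 difference of -0.03 (95% confidence interval -0.37 to 0.32; limma adjusted p = 0.912).

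For miR-497, the partner of miR-195, the scaled log2 signal was 11.00, 10.90, 11.15 and 10.91 in Holstein-Friesian and 11.06, 11.13, 11.05 and 11.29 in Limousin. Limousin replicate 4 was highest, and Holstein-Friesian replicate 3 lay among the Limousin values. The means were 10.99 ± 0.12 (SD, n = 4) and 11.13 ± 0.11 (SD, n = 4), a log2 difference of 0.14 (95% confidence interval -0.11 to 0.39; limma adjusted p = 0.351). Its spread between animals, pooled over both breeds, was the smallest of the 6 members.

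The exact permutation test of each member alone gave p = 0.0286 for miR-15a, miR-16a and miR-16b, which is the smallest value that 4 arrays against 4 can give in a two-sided test. The same exact test gave p = 0.514 for miR-15b, p = 0.857 for miR-195 and p = 0.143 for miR-497. Complete separation was seen with Limousin above for 3 of the 6 members and with Limousin below for none of them. Of all tested miRNAs, 36.7% separated completely, 15.9% with Limousin above and 20.7% below.

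A second look at each call came from the other probes of the same miRNA, which cover nearly the same bases and are therefore not independent. Both probes of miR-15a rose, by 0.41 for the probe of 18 bases (limma adjusted p over 495 probes = 0.0227) and 0.46 for the probe of 19. All 3 probes of miR-16b rose, by 0.42, 0.45 and 0.42 for 16, 17 and 18 bases (adjusted p = 0.0230, 0.0175 and 0.0336). The probes of miR-16a of 17 and 18 bases lay at 0.34 and 0.33 and just missed the threshold (adjusted p = 0.0502 and 0.0538). Neither probe of miR-15b (-0.11 and -0.09), miR-195 (-0.04 and -0.03) or miR-497 (0.10 and 0.14) passed. Thus 5 of the 13 family probes passed; of all 495 probes tested, 40.2% passed, 13.7% higher and 26.5% lower.

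**Figure D2:**
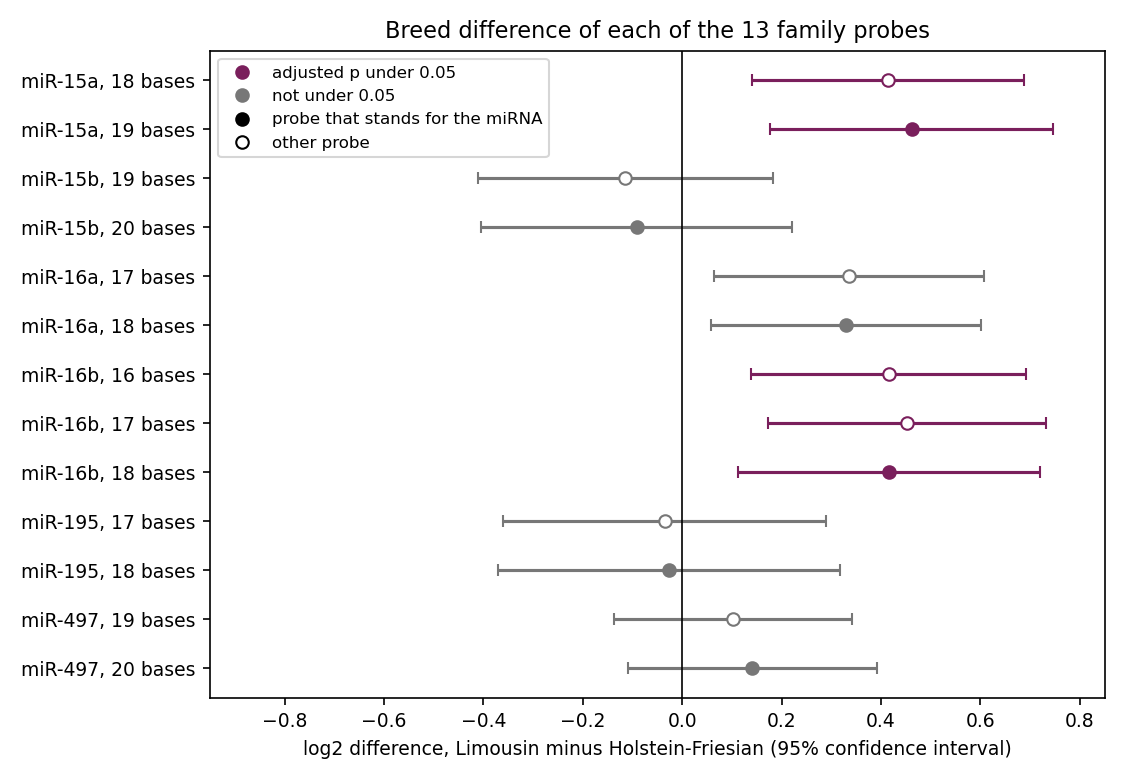
Log2 difference between the breeds (x axis, with its 95% confidence interval from limma, 4 arrays per breed) for each of the 13 family probes, named by miRNA and length. The 5 probes of miR-15a and miR-16b lie between 0.41 and 0.46 and pass; the 2 probes of miR-16a lie near 0.33 and the 6 of miR-15b, miR-195 and miR-497 have intervals that cross 0.

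In mammals the partners of a pair are known to be transcribed together, which was not measured here. For this reason the difference between their log2 signals within an array was compared between the breeds. A factor that scales a whole array drops out of this difference. Its own level has no meaning, since the probes differ. The probe of miR-16b is a near copy of that of miR-16a, and cross-hybridisation between them was not tested. For miR-15b minus miR-16b the within-array difference was 0.52, -0.11, 0.07 and 0.24 in Holstein-Friesian and -0.33, -0.42, -0.25 and -0.31 in Limousin. All 4 Limousin values lay below all 4 Holstein-Friesian values, and the Holstein-Friesian values were widely spread (SD 0.27, n = 4, against 0.07, n = 4). The change was -0.51. A two-sided exact permutation test gave p = 0.0286, the smallest value that 4 arrays against 4 can give. After Benjamini-Hochberg adjustment over the 3 pairs the p of this test was 0.0857 and did not pass. With 1 pair alone at the smallest p, no pair could pass after this adjustment, so the test could not decide on this change. In the 10 alternatives run on it the change lay between -0.71 and -0.48, and between -0.60 and -0.39 when 1 array was left out. With complete separation, leaving out 1 array could not change the sign. The other floor and the replicate block left the value as it was, so these alternatives are no separate checks of the sign.

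For miR-15a minus miR-16a the within-array difference was 0.66, 0.58, 0.71 and 0.69 in Holstein-Friesian and 0.69, 0.87, 0.72 and 0.90 in Limousin. The change was 0.13 (exact permutation p = 0.0857; 0.129 adjusted over the 3 pairs). For miR-195 minus miR-497 it was 0.82, 0.48, 0.89 and 0.75 in Holstein-Friesian and 0.77, 0.46, 0.48 and 0.57 in Limousin, a change of -0.17 (exact permutation p = 0.200; 0.200 adjusted). In these pairs the values of the breeds overlapped.

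**Figure D3:**
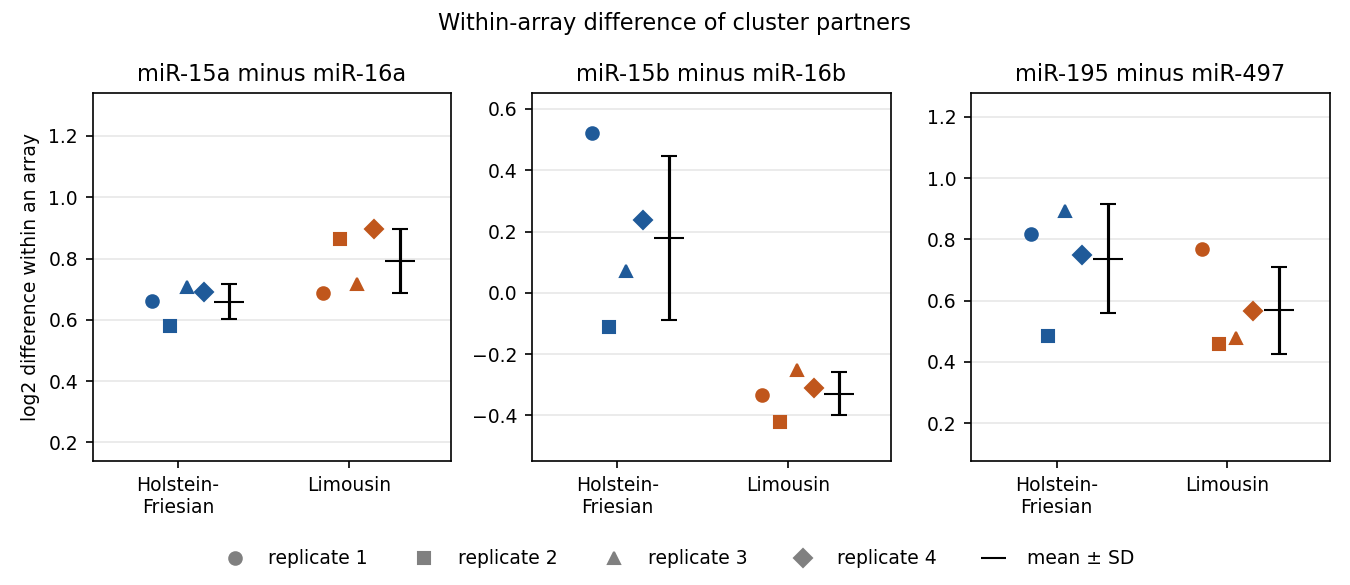
Difference between the log2 signals of cluster partners within each array (y axis, log2) for the 4 Holstein-Friesian and 4 Limousin arrays, with the mean ± SD; the zero point is arbitrary because 2 probes are subtracted. The breeds separate for miR-15b minus miR-16b (0.18 ± 0.27 against -0.33 ± 0.07) and overlap for the other pairs.

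Across the 8 arrays some members varied together, both within and outside the gene pairs. The correlations are descriptions over 8 arrays that share slide and scaling. After the mean of each breed was subtracted, Pearson's r was 0.85 for miR-15a with miR-16a, 0.83 for miR-15a with miR-16b and 0.87 for miR-16a with miR-16b. For miR-15b it was 0.85 with miR-195 but 0.47 with miR-16b, its partner, and 0.11 with miR-16a. The partners miR-195 and miR-497 had an r of 0.76.

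Holstein-Friesian replicate 3 had the highest value of its breed for 5 of the 6 members, all but miR-15b. It was also the brightest Holstein-Friesian array, with a scale factor of 1.02, next to that of Limousin replicate 3, also 1.02. Between these arrays, singled out after the values were seen, the log2 differences (Limousin minus Holstein-Friesian) were 0.02 for miR-15a, 0.02 for miR-16a and 0.04 for miR-16b, and -0.28 for miR-15b, -0.52 for miR-195 and -0.10 for miR-497. The median over all tested miRNAs was -0.08 between them. Of the 37 miRNAs called higher in Limousin, 36 lay the same way between these arrays, with a median of 0.32 against 0.58 over all 8 arrays. Of the 76 called lower, 70 did, with a median of -0.44 against -0.78. Those calls were made with these arrays included. Each side is 1 array, so these values have no replicate check. The part of array brightness in the family's differences was not tested.

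The miRNAs whose pattern was most like the mean of the 6 members were sought among the 226 others detected on all 8 arrays. By Pearson's r over the 8 arrays they were miR-30b-5p (0.96), miR-26b (0.95), miR-126-3p (0.94), miR-376d (0.94) and miR-142-5p (0.93). With breed means subtracted they were miR-30b-5p (0.98), miR-376d (0.96), miR-376e (0.95), miR-200b (0.94) and miR-26b (0.92). Of these 7, miR-126-3p is known from endothelium, miR-142-5p from blood cells and miR-200b from epithelium. The r values were picked as the highest of 226, so their size is no test. The mean of the 6 members lay furthest from its breed mean in Holstein-Friesian replicate 3 (0.22), then in Limousin replicate 4 (0.14). The part of single arrays in the r values was not tested.

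Relatives of the family on the array include miR-424 and miR-503, which share the family's seed or most of it, and miR-103 and miR-107, whose seed is shifted by a base. The seed relative miR-424-5p had a scaled log2 signal of 8.16, 8.66, 8.64 and 8.19 in Holstein-Friesian and 8.98, 8.93, 8.87 and 9.07 in Limousin. The breeds did not overlap, and Holstein-Friesian replicates 1 and 4 were low, as for miR-16a. It rose by 0.55 (SE 0.14; 1.46-fold, 95% confidence interval 1.17 to 1.83; limma adjusted p = 0.0146). This call was lost with no detection filter (limma adjusted p = 0.0528). It was also lost with a correction for probe length alone (0.29), GC content alone (0.19) or both (0.26). The other arm, miR-424-3p, did not pass (-0.02; adjusted p = 0.981), nor did miR-103 (-0.0054; adjusted p = 0.981); the signs of both changed with the scaling. The difference of miR-107, 0.29 (SE 0.12; adjusted p = 0.0715), missed the threshold and passed without Holstein-Friesian replicate 2 (0.35; adjusted p = 0.0250), with the percentile over all probes (0.62), without scaling (1.14), with spike-ins (1.07) and in the authors' deposited table (0.57). Neither arm of miR-503 was well above background on any array, and miR-322 and miR-646 had no entry under these names.

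Other miRNAs known to act on cell division were counted from 2 lists. Of 18 named as brakes (let-7, miR-34, miR-449, miR-26, miR-143 and miR-145), 13 were tested, 2 rose, 0 fell and 11 did not pass, with a median log2 difference of 0.26 beside -0.07 over all tested miRNAs, of which 13.7% rose and 28.1% fell. Those that rose were let-7i, by 0.70 (limma adjusted p = 0.0043), and let-7e, by 0.38 (adjusted p = 0.0208); the latter call was lost without Holstein-Friesian replicate 1 or 4 or Limousin replicate 1 or 4 (0.35, 0.39, 0.37 and 0.32; adjusted p = 0.0580, 0.0530, 0.0656 and 0.0535). Of 17 named as promoters of division (the miR-17-92 relatives, miR-21-5p, miR-155, miR-221 and miR-222), 15 were tested, 5 rose, 0 fell and 10 did not pass, with a median of 0.18, beside the same shares of 13.7% and 28.1% over all tested miRNAs. The smallest p-values there were those of miR-155 (0.95; adjusted p = 0.0012) and miR-222 (0.50; adjusted p = 0.0066), the latter lost with normexp background correction (0.21; adjusted p = 0.117) and with no background correction (0.25; adjusted p = 0.0619). In these settings the value of miR-155 was 0.34 and 0.41 and still passed.

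The tissue label was checked on marker miRNAs. Of the 9 epithelial markers on the array (among them the miR-200 family and miR-205), 8 were detected on all 8 arrays and none of them passed, with a summed scaled signal of 18059 to 20303 in Holstein-Friesian and 19162 to 21048 in Limousin. Of the 6 leukocyte markers 4 were detected on all arrays and 2 rose, miR-155 and miR-142-5p, beside 13.7% of all tested miRNAs. The others, miR-223 (-0.15; adjusted p = 0.606) and miR-150 (0.02; adjusted p = 0.931), did not pass in the limma fit. The markers miR-142-3p and miR-146a were not well above background on any array. The summed signal of all 6 was 1028 to 1541 in Holstein-Friesian and 1479 to 1897 in Limousin. The call of miR-142-5p (0.56; limma adjusted p = 0.0223) was lost without Holstein-Friesian replicate 1 (0.46; 0.0580) or 4 (0.51; 0.0650) and without Limousin replicate 1 (0.52; 0.0656) or 4 (0.49; 0.0670). The erythroid marker miR-451 (-0.35; adjusted p = 0.546) and the skeletal muscle marker miR-1 (0.26; adjusted p = 0.487) did not pass in the limma fit, and the other markers of these lists were not tested for want of signal; the summed signals were 42.4 to 149 and 46.2 to 90.9 in Holstein-Friesian and 42.5 to 59.6 and 39.3 to 91.9 in Limousin. The liver marker miR-122 and the neural markers on the array were not well above background on any array. The endothelial and smooth muscle markers (both arms of miR-126, and miR-143 with miR-145) were detected on all and did not pass. The summed smooth muscle signal was 4541 to 4955 in Holstein-Friesian and 3734 to 4208 in Limousin, and the endothelial signal 2737 to 3509 and 3180 to 4006. The part of leukocytes and other cell types in the rise of miR-15a and miR-16b was not tested.

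Over all 270 tested miRNAs the breed difference went with the probe: Spearman's rho across miRNAs, which are not independent replicates, was -0.64 with GC content and 0.66 with length. The family probes have 18 to 20 bases and a GC content of 38.9% to 50%. Among the 88 tested miRNAs with probes of 18 to 20 bases the median difference was 0.14, with 24 of the 37 calls in the higher direction and 4 of the 76 in the lower. When each array was corrected for both properties, the log2 difference of miR-15a went from 0.46 to 0.20 (adjusted p = 0.165), that of miR-16b from 0.42 to 0.26 (0.0920) and that of miR-16a from 0.33 to 0.15 (0.205), so that no member was called higher. The difference of miR-15b went from -0.09 to -0.45 and passed (adjusted p = 0.0475), but not with a correction for length alone (-0.47; adjusted p = 0.0510) or GC content alone (-0.28; adjusted p = 0.163). Those of miR-195 and miR-497 were then -0.20 (0.359) and -0.20 (0.153), and miR-424-5p (0.26; 0.0651), let-7i (0.24; 0.128), let-7e (0.11; 0.365) and miR-142-5p (0.16; 0.342) no longer passed, whereas miR-222 did (0.92; 1.6e-04). After this correction 28.9% of all tested miRNAs passed, 9.63% higher and 19.3% lower. The part of probe composition in the differences was not tested beyond these values.

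**Figure D4:**
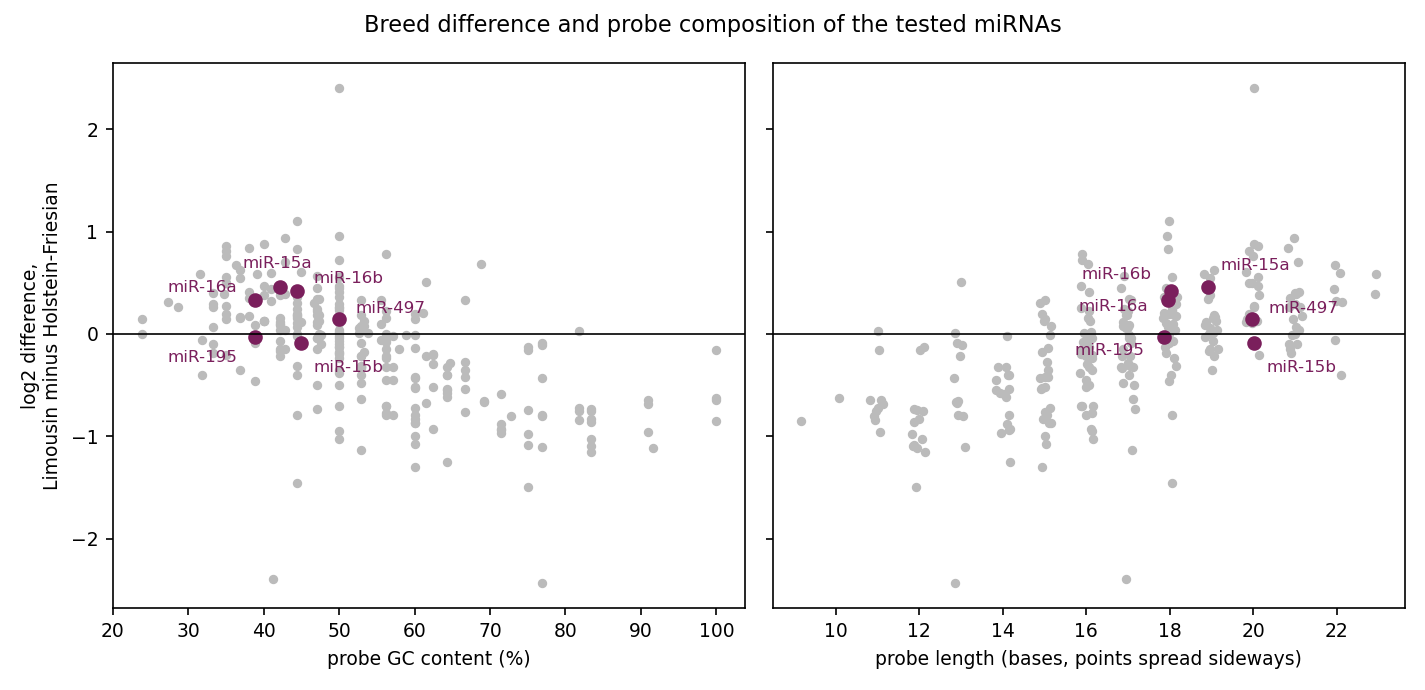
Log2 difference between the breeds (y axis) against the GC content (left) and length (right) of the probe that stands for each of the 270 tested miRNAs (grey), with the 6 family members in colour. The members lie between 38.9% and 50% GC and between 18 and 20 bases; their differences run from -0.09 for miR-15b to 0.46 for miR-15a.

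The directions also rest on the scaling. Without scaling all 6 members were called higher in Limousin, between 0.76 for miR-15b and 1.32 for miR-15a, as were 64.1% of all tested miRNAs. Scaled to the labelling spike-ins, all 6 passed as well, and again 64.1% of all tested miRNAs were called higher. In the authors' deposited values, 4 members passed, miR-15a at 0.72, miR-16b at 0.70, miR-16a at 0.61 and miR-497 at 0.40, beside 30.0% of all tested miRNAs. With cyclic loess only miR-15a passed, beside 16.7% of all tested miRNAs called higher and 21.9% called lower. Under each of these scalings miR-15a had a larger difference than miR-15b. With no scaling and with spike-ins this order could not change, since a factor per array drops out of it. With cyclic loess miR-15a was at 0.39 and miR-15b at -0.20, and in the deposited values miR-15b was at 0.18.

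**Figure D5:**
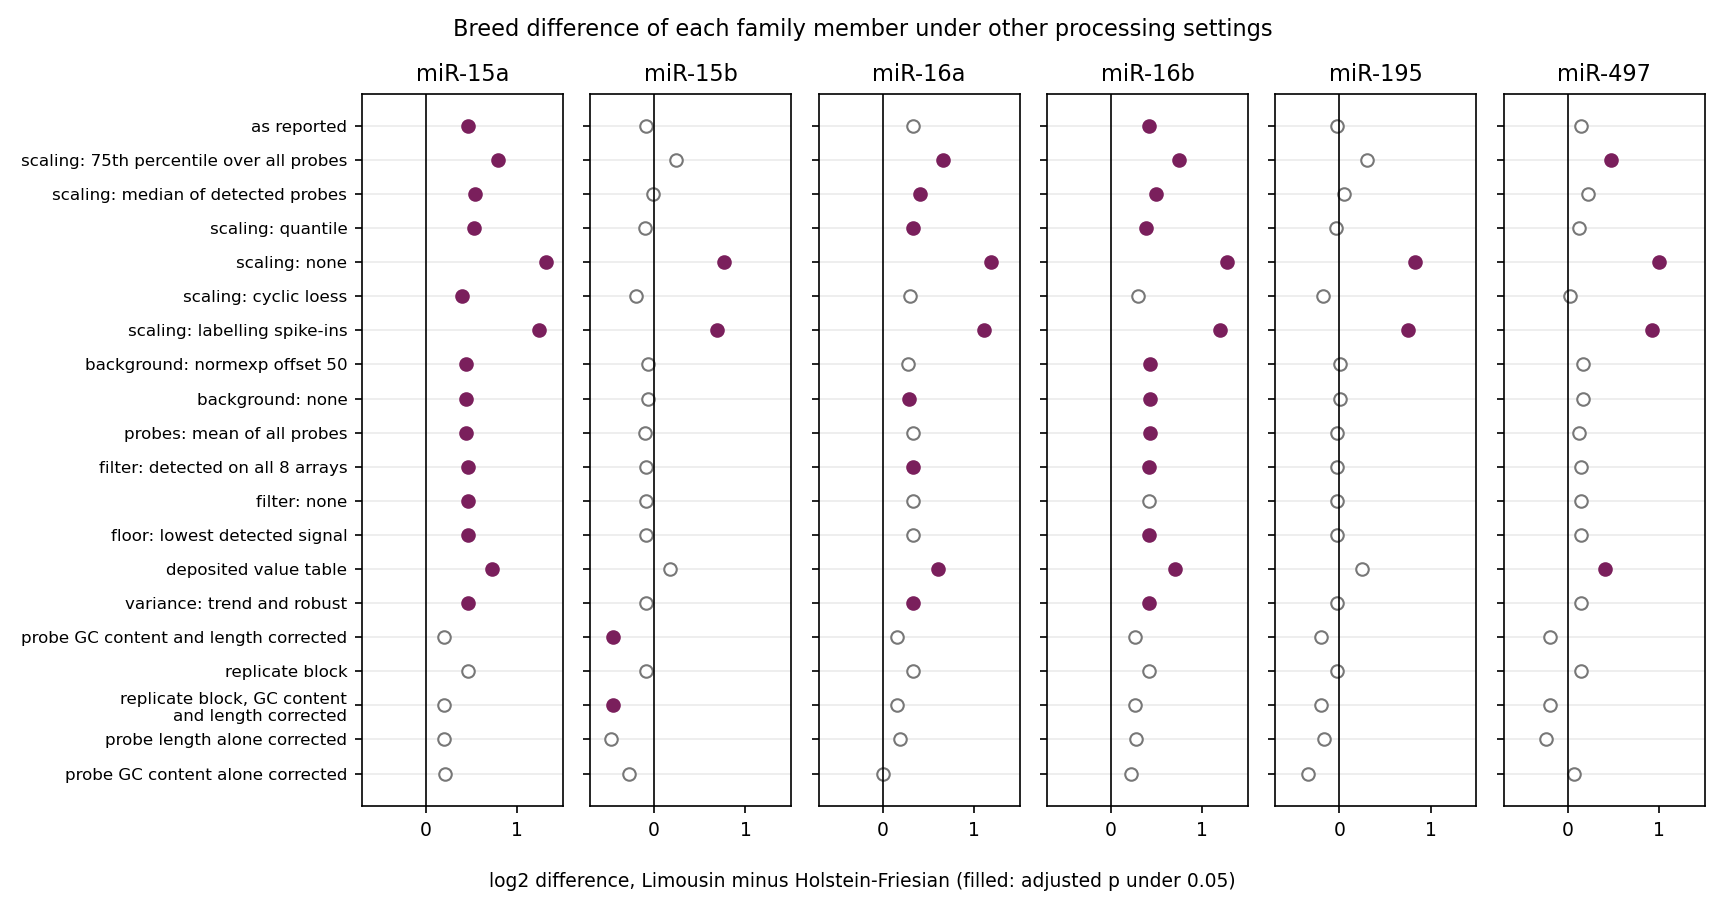
Log2 difference between the breeds (x axis) of each family member as reported and under 19 other processing settings (rows); filled points have a limma adjusted p under 0.05. The difference of miR-15a lies above 0 under all of them, from 0.20 to 1.32, and that of miR-15b ranges from -0.47 to 0.76.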

How the data were processed

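RNA was isolated from tissue stored in RNAlater with a miRNeasy kit, and 100 ng were labelled with Cyanine 3-pCp, per the labels' protocols. Per the file headers, the authors' scanner files came from Agilent Feature Extraction 10.10.1.1, and their spot intensity was already corrected for background, with no normalization between arrays. The authors' deposited value table holds log2 values, which match Agilent's log2 total gene signal, shifted by a constant per array, to within 9.7e-06, with column medians from -9.79 to -8.53.

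Control and outlier spots were left out, spots of a probe were averaged, and detection of a probe meant that over 50% of all its spots stood well above background. Each array was scaled to the 75th percentile of the 429 probes detected on all 8 arrays, values under 1 were set to 1, and log2 was taken. The probe with the highest mean stood for a miRNA. A limma 3.58.1 model (lmFit, eBayes; R 4.3.3) with a term for breed and none other was fitted to the 270 miRNAs that all 4 arrays of a breed detected, and calls were made at 0.05 after Benjamini-Hochberg adjustment. The fit was tested on simulated data. The members, the lists and the rule for other named miRNAs (the family's seed relatives, the 5 most alike by each correlation, and the 2 smallest p-values per division list) were chosen with earlier results of these data known. Mature miRNA sequences were not used here; sequences come from the array's probe column, and gene neighbours from RefSeq names. Alternatives covered scaling, background, probe summary, detection filter, floor, the deposited table, variance model, probe composition, a replicate block, and the omission of each array; corrections for GC content alone and length alone were added after the data were seen. The correction subtracts, per array, a linear fit on probe GC content and length of each miRNA's deviation from its mean over arrays. The labels do not state that same-numbered animals were paired, so the main fit has no term for the number. The number is also a position index on the slide, and with it as a block neither miR-15a nor miR-16b passed. Same-numbered arrays deviated together for number 4 (r = 0.32) and not for the others.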

Additional observations from a re-analysis of the deposited data

How the results depend on the processing

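Of 19 settings other than leaving out an array, miR-15a kept its call in 14, miR-16b in 12, and miR-16a, at adjusted p = 0.0519, passed in 9; the settings below changed a call, a sign or a count by over 1.5 times, and where no construction shows why, the cause was not tested. Log2 differences are Limousin minus Holstein-Friesian. With the 75th percentile over all probes, miR-15b was at 0.24, miR-195 at 0.30, miR-103 at 0.32 and miR-424-3p at 0.31, and miR-16a (0.66) and miR-497 (0.47) passed; 104 miRNAs were higher and 30 lower. With median scaling miR-16a passed (0.41), miR-195 was at 0.054, miR-103 at 0.076 and miR-424-3p at 0.066 (40 higher, 59 lower). With quantile scaling miR-16a passed (0.33), miR-103 was at 0.015 and miR-424-3p at 0.23 (55 higher, 43 lower). With no scaling 175 miRNAs passed, 173 higher and 2 lower, and miR-15b (0.76), miR-16a (1.18), miR-195 (0.83), miR-497 (0.99), miR-103 (0.85) and miR-424-3p (0.84) passed. With labelling spike-ins 177 passed, 173 higher and 4 lower, and so did miR-15b (0.69), miR-16a (1.11), miR-195 (0.75), miR-497 (0.92), miR-103 (0.77) and miR-424-3p (0.76). With cyclic loess miR-16b missed the threshold (0.30) and miR-424-3p was at 0.19 (45 higher, 59 lower). In the authors' deposited table, with 81 higher and 28 lower, miR-15b was at 0.18, miR-195 at 0.25, miR-103 at 0.25 and miR-424-3p at 0.43, and miR-16a (0.61) and miR-497 (0.40) passed. Normexp gave 172 calls (26 higher, 146 lower), with miR-195 at 0.011 and miR-103 at 0.015; no background correction gave 170 (27 higher, 143 lower), with miR-195 at 0.0051, miR-103 at 0.012 and miR-16a past the threshold (0.28). With the mean of all probes miR-424-3p was at 0.10. With only miRNAs detected on all 8 arrays, or with trend and robust variance, miR-16a passed at its 0.33. With no filter miR-16b did not pass at its 0.42, nor did miR-424-5p at its 0.55 and miR-142-5p at its 0.56.

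Corrected for probe GC content together with length, miR-15a (0.20) and miR-16b (0.26) did not pass, miR-15b did (-0.45), miR-497 was at -0.20 and miR-424-3p at 0.28. For length alone miR-15a was at 0.20, miR-16b at 0.27, miR-497 at -0.24 and miR-424-3p at 0.32; for GC content alone miR-15a was at 0.21, miR-16b at 0.22 and miR-424-3p at 0.06, and neither miR-15a nor miR-16b passed; miR-16a was at 0.0094 with GC content alone. Under either correction alone miR-424-5p, let-7e and miR-142-5p did not pass, and let-7i did not with length alone. Titles give both breeds the numbers 1 to 4, but the deviations of same-numbered arrays from their breed means correlated at -0.31, -0.25, -0.45 and 0.32, and 1 of the 4 correlated best with its own number. With the replicate number as a block 84 miRNAs passed, and miR-15a (0.46; adjusted p = 0.0622) and miR-16b (0.42; adjusted p = 0.0983) did not. Nor did let-7e (0.38; limma adjusted p = 0.0823) and miR-142-5p (0.56; limma adjusted p = 0.0574). With the replicate block and the GC and length correction 61 passed (20 higher, 41 lower), miR-15b among them (-0.45; adjusted p = 0.0367), and miR-15a (0.20), miR-16b (0.26), miR-497 (-0.20) and miR-424-3p (0.28) did not; a block leaves a pair test of 4 no p under 0.125. In that setting miR-424-5p, let-7i, let-7e and miR-142-5p did not pass either. When 1 array was left out, the count ran from 71 to 142, miR-15a from 0.41 to 0.55, miR-16a from 0.27 to 0.40, miR-16b from 0.36 to 0.50, miR-195 from -0.14 to 0.079, miR-15b from -0.17 to -0.0061 and miR-497 from 0.09 to 0.19; miR-424-3p ran from -0.23 to 0.19 and miR-103 from -0.045 to 0.073.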
